A study of Mus musculus with 64 samples.

Results

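Molecular chaperones of the heat shock protein families are described here in 4 tissues of mice after chronic stress. The set held 10 genes, chosen by symbol: Hsph1, Hspa8, Hspa4, Hspa4l, Hsp90aa1, Hsp90ab1, Dnaja1 and Dnajb1, whose proteins work in the cytosol, and Hspa5 and Hsp90b1, whose proteins work in the endoplasmic reticulum (ER). All 10 had a row in each of the 4 expression tables, among 16155 genes for hypothalamus, 15697 for prefrontal cortex, 15573 for hippocampus and 8830 for whole blood. RNA was sequenced from 64 libraries of 17 male BALB/c mice, an inbred albino strain, aged 28 weeks. Control mice stayed unstressed, and the others were exposed for 9 weeks to UCMS (Unpredictable Chronic Mild Stress), a schedule of varied mild stressors that serves to model major depression. Each brain region had 8 control and 8 UCMS libraries, and blood had 7 control and 9 UCMS libraries, with 1 library per animal and tissue. The mice were sampled 14 to 16 hours after the final stressor, between ZT12.5 and ZT14.5 (hours after lights on). The series asks how chronic stress changes transcripts in brain regions linked to stress and sleep.

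HSP70 proteins hold unfolded stretches of other proteins in cycles of ATP hydrolysis, J-domain proteins (DNAJ) hand clients to them, HSP110 proteins reset them by exchanging nucleotide, and HSP90 proteins mature a narrower set of clients, steroid receptors and kinases among them. In the cytosol the inducible genes of this machinery are transcribed by the heat shock factor HSF1, which binds heat shock elements. In the ER the counterparts BiP (Hspa5) and GRP94 (Hsp90b1) are induced by the unfolded protein response, partly through ATF6 at ER stress elements. In rodents, body temperature and wakefulness are both known to raise transcripts of these genes in the brain.

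Promoter letters close to the start differed between the ER genes and the cytosolic genes. RefSeq windows on GRCm38.p6, from 250 bases before to 50 bases after each gene's start, were held for 7 of the 10 genes (Hsph1, Hspa4, Hspa4l, Dnaja1, Dnajb1, Hspa5 and Hsp90b1). The ER stress element was searched as CCAAT, any 9 bases and CCACG, on both strands, and lay in the windows of 37 of 27025 genes, or 0.137%. Both ER genes carried it, and none of the 5 cytosolic genes with a window did. The lines below are read along each gene's own strand, 5′ to 3′, with the element in capitals, and they are shown because the levels of these genes are compared further on. Hspa5 lies at chr2:34772020-34772048, plus strand, with its element at -65 to -47 from the start. Hsp90b1, at chr10:86705510-86705694 on the minus strand, holds 2 copies in opposite orientation, at -212 to -194 and at -107 to -89. Pdia6 (chr12:17266486-17266514, plus strand) and Creld2 (chr15:88819515-88819543, plus strand, element in reverse orientation) are ER folding genes outside the set. The whole genes in GENCODE M21 span chr2:34771970-34777547 for Hspa5 and chr10:86690209-86705509 for Hsp90b1. Positions are counted from the RefSeq start of the window. For Hspa5 the GENCODE span begins before that start, and the stretch shown lies inside it.
Hspa5: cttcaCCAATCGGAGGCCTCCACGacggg
Hsp90b1: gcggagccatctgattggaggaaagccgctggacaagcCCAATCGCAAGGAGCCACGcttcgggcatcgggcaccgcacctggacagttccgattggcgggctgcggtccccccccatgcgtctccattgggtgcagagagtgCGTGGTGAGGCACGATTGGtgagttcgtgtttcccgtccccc
Pdia6: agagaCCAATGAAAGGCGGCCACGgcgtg
Creld2: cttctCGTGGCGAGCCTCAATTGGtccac

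The heat shock element was searched in its 3-unit form GAA, any 2 bases, TTC, any 2 bases and GAA, on both strands, which lay in the windows of 179 genes, or 0.662%. Of the 5 cytosolic genes with a window Hsph1 alone carried it, at +37 to +49, inside the first transcribed bases. Its first 2 units alone, GAA and TTC with any 2 bases between, were found in 9.04% of genes, in Hsph1 and in Dnaja1. Its last 2 units alone, TTC and GAA with any 2 bases between, were found in 9.6% of genes and in Hsph1. In Hsph1 a match of each short form lies inside the 3-unit match, and a further match of the last 2 units lies apart from it, at -33 to -26. Hspa4, Hspa4l and Dnajb1 held none of the forms in these 300 bases. Chordc1, which encodes an HSP90-binding protein, is shown for comparison with its 3 overlapping matches in capitals. It ranked 5 among the genes most like Hsph1 across animals, but 1560 of 13432 after a correction for transcript GC content. The Chordc1 stretch lies at chr9:18292260-18292288 on the plus strand. The Hsph1 stretch is at chr5:149636287-149636305 on the minus strand, within the gene's span of chr5:149614287-149636376.
Hsph1: gcagaTTCTGGAAAGTTCt
Chordc1: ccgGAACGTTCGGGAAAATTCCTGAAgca
A match is a description of letters and says nothing of binding in these tissues.

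Values are normalized log2 levels as deposited. The value distributions of the libraries of a table were nearly the same, and each table was normalized apart. A level set across tissues is therefore a description without a test. Levels of different genes are set against each other only in the balance of cytosolic to ER chaperones. That balance is read for its difference between control and UCMS, not for its sign or size. The deposited values carry no read depth. Markers set hypothalamus and blood apart. All 8 hypothalamic neuron markers were listed in the hypothalamus table, against 2 in the prefrontal cortex and hippocampus tables and none in the blood table. In blood the mean level of 7 red cell markers ran from 10.6 to 11.5. Hippocampus was less set apart, since 6 of 7 hippocampal neuron markers were also in the prefrontal cortex and hypothalamus tables. Choroid plexus markers reached a mean level of 7.93 in prefrontal cortex controls (median 4.02). In bulk tissue, a change in the share of a cell type and a change in RNA per cell cannot be told apart. Symbols carry no isoform, and reads shared with the near-identical retrocopies that Hspa8, Hsp90ab1 and Hsp90aa1 have in the genome may have been split, since the counting is not given in the sources used here.

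All 10 chaperones were listed at higher levels in the brain tables than in the blood table. In control mice the lowest brain library lay above the highest blood library for every gene, by 0.82 (log2) for Dnajb1, a J-domain protein of the stress response, up to 4.46 for Hsp90ab1, the constitutive cytosolic HSP90. Among the brain regions the hypothalamus had the highest control mean for 9 of the 10 genes, the exception being Hsp90ab1. For 8 genes the order was hypothalamus, hippocampus, prefrontal cortex, blood. Hsp90ab1 ran hippocampus, hypothalamus, prefrontal cortex, and Dnajb1 ran hypothalamus, prefrontal cortex, hippocampus. The blood table was lower as a whole, with a mean over all its genes of 3.72 per library. That mean was 4.62 for prefrontal cortex, 4.68 for hippocampus and 4.67 for hypothalamus, each over the genes of its own table. The share of all genes with such an order or such a gap to blood was not counted. Neither trait is thus shown to be particular to chaperones.

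Hspa5, the master HSP70 of the ER, was 1 of 2 genes whose hypothalamus and hippocampus control libraries did not overlap. Its control level was 7.45 ± 0.12 in hypothalamus (SD, n = 8), 7.02 ± 0.21 in hippocampus (n = 8), 6.95 ± 0.18 in prefrontal cortex (n = 8) and 3.78 ± 0.37 in blood (n = 7). Its lowest hypothalamus library (7.28) stood above its highest hippocampus library (7.22). Hspa4l, an HSP110 protein, was the other, with means of 6.03 ± 0.15 and 5.57 ± 0.063 (n = 8 each). For the other genes, neighbouring brain regions overlapped in range and their order is not separated beyond the spread. How many of all genes had ranges apart between these regions was not counted.

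**Figure D1:**
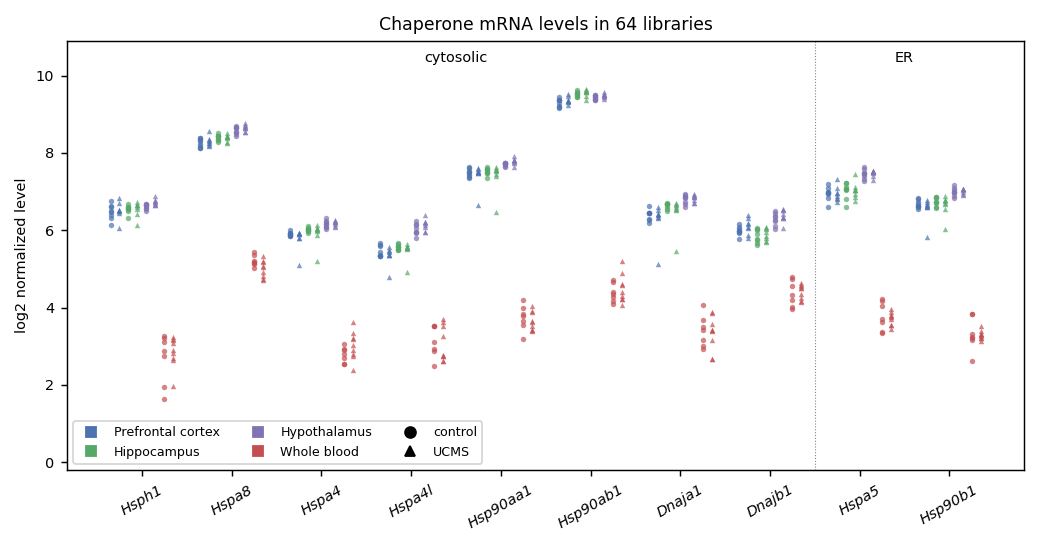
Normalized log2 level (vertical axis) of each of the 10 chaperone genes in every library, by tissue. Colours mark tissues, circles control and triangles UCMS libraries. Every gene's control libraries in brain lie above those in blood, the narrowest gap being 0.82 for Dnajb1, and tables of different tissues were normalized apart.

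3 libraries stood apart from their groups in a way that touched the chaperones. Their deviations from the other libraries of their group followed the GC content of transcripts, with a Spearman rho across genes of 0.744 for prefrontal cortex UCMS 5, 0.743 for hippocampus UCMS 3 and 0.659 for blood control 2, against at most 0.394 in size for any other library. GC-poor transcripts were low in them. In prefrontal cortex UCMS 5, Dnaja1, whose transcript has 41.2% GC, deviated by -1.31 (log2) from the mean of the other UCMS libraries, while Hsp90ab1, with 51% GC, deviated by 0.0071. In hippocampus UCMS 3, Dnaja1 deviated by -1.13 and Hsp90aa1, the inducible cytosolic HSP90 with 43.7% GC, by -1.05, while Dnajb1, with 52.7% GC, deviated by 0.15.

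In the brain libraries among these, several chaperones deviated further than genes of like GC content. Genes with a GC content like that of Dnaja1 had a median deviation of -0.51 in prefrontal cortex UCMS 5 and -0.54 in hippocampus UCMS 3. Hsp90aa1 deviated by -0.88 and -1.05 where genes of like GC content had medians of -0.32 and -0.38. Hsph1, with 47.4% GC, deviated by -0.52 and -0.48 against -0.073 in both. In both brain libraries Dnaja1, Hsp90aa1, Hspa4, Hsph1 and Hsp90b1 lay below the lower quartile of genes of like GC content. Hspa5 and Hspa4l did not. Blood control 2 differed: Hsp90b1 alone lay below the lower quartile there, and Hsph1, Hspa4l and Hspa5 lay above the upper quartile. Further on, selected values are also given without the 3 libraries that followed GC content, a choice made after the values were seen. Other counts use all libraries.

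**Figure D2:**
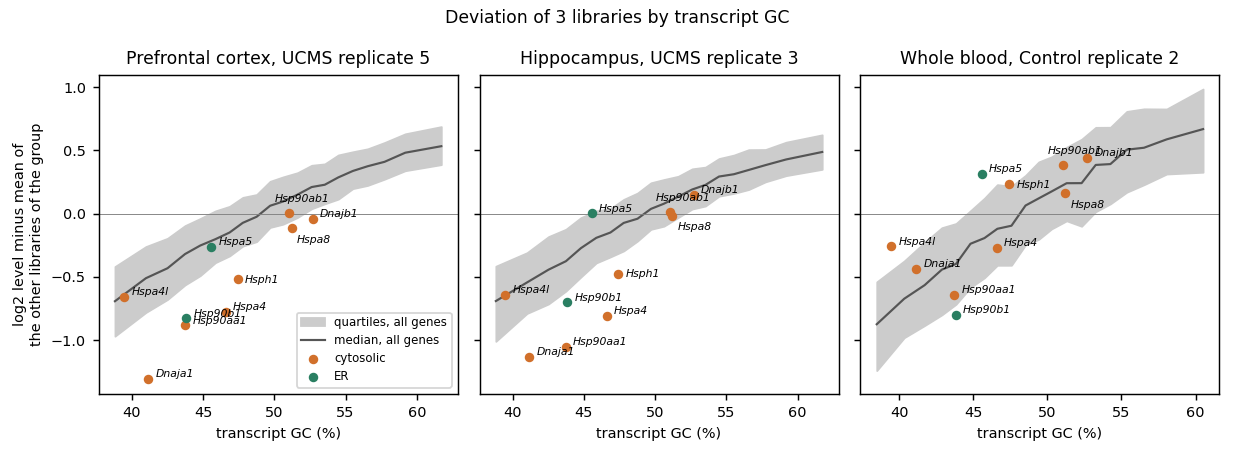
Deviation of genes (log2, vertical axis) from the mean of the other libraries of the group against transcript GC content (percent, horizontal axis) in the 3 libraries that followed it; the line joins medians of genes binned by GC content, the band is their quartiles, and points are the 10 chaperones. Dnaja1 sits at -1.31 in prefrontal cortex UCMS 5 and at -1.13 in hippocampus UCMS 3, below the median of genes of like GC content.

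No chaperone changed with UCMS in any tissue by limma at an adjusted p under 0.05, and neither did any other gene. At an unadjusted p under 0.05, 308 of 14127 genes (2.18%) passed in prefrontal cortex. The same held for 414 of 14015 (2.95%) in hippocampus, for 308 of 14539 (2.12%) in hypothalamus and for 859 of 7947 (10.8%) in blood. Of the 10 chaperones, 1 passed at that level in hypothalamus and 0 in each of the other tissues. The hypothalamus was the tissue in which all 10 estimates were above 0, where 50.5% of all genes had an estimate above 0. The median of the 10 differences there was 0.064 (log2), with 0.073 for the cytosolic genes and 0.019 for the ER genes. Leaving out hypothalamus control 2 took Dnaja1 to -0.0015 and Hspa5 to -0.0034, and leaving out control 1 took Hsp90b1 to -0.0066. The common sign was known before the set was chosen and is no independent support.

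Hsph1, the HSP110 co-chaperone that resets HSP70, was the gene that passed. In hypothalamus its control libraries ran from 6.495 to 6.68 with a median of 6.64, and its UCMS libraries from 6.64 to 6.87 with a median of 6.73. All 8 UCMS libraries were above the control median and 6 were above every control library, while 4 controls were below every UCMS library, so the groups overlapped in their middle only. The means were 6.61 ± 0.068 and 6.73 ± 0.077 (SD, n = 8 each). The difference was 0.12 (SE 0.041, 95% interval 0.029 to 0.20), a fold of 1.08, with an unadjusted p of 0.0119 and an adjusted p of 0.999 by limma. An exact permutation of the labels gave a two-sided unadjusted p of 0.00513, the smallest of 40 such tests over genes and tissues. The estimate stayed between 0.096 and 0.13 when each library was left out in turn.

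Of the HSP90 genes in hypothalamus, Hsp90aa1 ran from 7.63 to 7.75 in controls (median 7.73) and from 7.64 to 7.91 under UCMS (median 7.80). 6 of 8 UCMS libraries exceeded every control, and 2 did not. The difference was 0.076 (SE 0.038), with an exact permutation p of 0.0322 before adjustment and an unadjusted limma p of 0.061. Hsp90ab1 ran from 9.36 to 9.51 in controls (median 9.43) and from 9.41 to 9.58 under UCMS (median 9.49), with most libraries of both groups in the shared range. Its difference was 0.057 (SE 0.034, exact permutation p 0.0536).

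Hspa8, the constitutive cytosolic HSP70, ran from 8.45 to 8.69 in hypothalamus controls (median 8.59) and from 8.54 to 8.77 under UCMS (median 8.66). The ranges overlapped and the difference was 0.071 (95% interval -0.023 to 0.16). Among the other HSP110 genes, Hspa4l differed by 0.12 (95% interval -0.037 to 0.27) and Hspa4 by 0.025 (-0.068 to 0.12). The J-domain genes differed by 0.09 for Dnajb1 (-0.077 to 0.26) and by 0.027 for Dnaja1 (-0.088 to 0.14).

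The ER genes were nearest to 0 in hypothalamus. Hspa5 ran from 7.28 to 7.63 in controls (median 7.47) and from 7.31 to 7.54 under UCMS (median 7.51), the UCMS libraries all inside the control range. Its difference was 0.022 (SE 0.053, 95% interval -0.089 to 0.13). Hsp90b1 differed by 0.017 (SE 0.048, -0.084 to 0.12), again with no UCMS library outside the control range. Meningeal and fibroblast markers were higher in UCMS hypothalamus for 5 of 5 genes tested, of 7 listed, with a median of 0.38 (log2). The mean level of that list ran from 2.99 to 4.64 in controls and from 2.91 to 5.47 under UCMS. Red cell markers were higher for 4 of 4 genes tested, of 8 listed, with mean levels of the list from 3.21 to 10.5 in controls and from 3.24 to 10.2 under UCMS. Other lists were lower: excitatory neuron markers for 5 of 5 genes tested, of 6 listed (median -0.16), inhibitory neuron markers for 4 of 5 (-0.08) and myelin markers for 7 of 8 (-0.047). Hypothalamic neuron markers were higher for 5 of 8 (0.13). None of these markers had an unadjusted p under 0.05, and their part in the chaperone estimates was not tested.

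**Figure D3:**
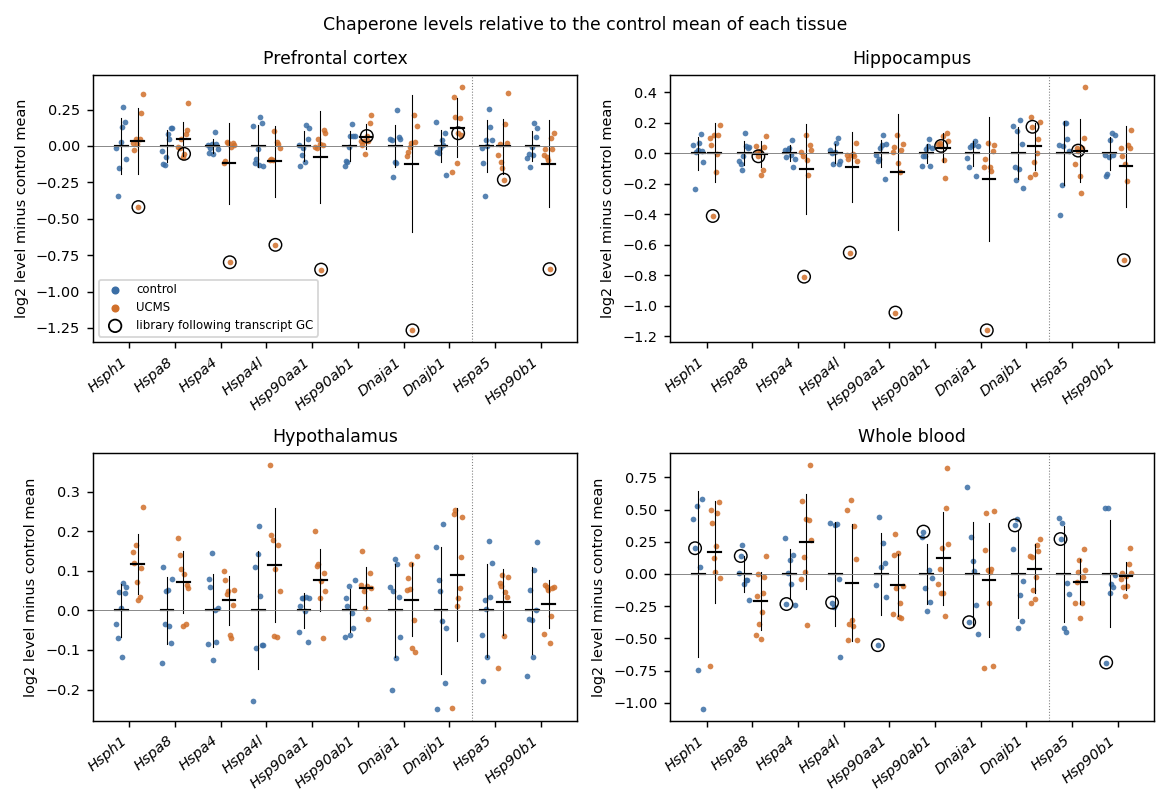
Level of each chaperone in each control and UCMS library minus the control mean of the tissue (log2, vertical axis), in 4 panels by tissue with scales of their own; dashes are group means, bars SD, and ringed points the libraries that followed transcript GC content. In hypothalamus all 10 UCMS means lie above 0, from 0.017 for Hsp90b1 to 0.12 for Hsph1.

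In prefrontal cortex 4 of 10 estimates were above 0, against 52% of all genes, with a median of -0.038. The direction of 3 of them turned with prefrontal cortex UCMS 5, and without that library 7 were above 0 and the median was 0.038. Dnaja1, which hands clients to HSP70, ran from 6.18 to 6.64 in controls (median 6.43) and from 5.13 to 6.60 under UCMS (median 6.40), 5.13 being prefrontal cortex UCMS 5. The Dnaja1 difference was -0.12 (SE 0.16) with that library and 0.041 without it. Hsp90aa1 moved likewise, from -0.076 to 0.035, and Hspa5 from -0.00087 to 0.032. Dnajb1 had the smallest p of the set here, with a difference of 0.12 (95% interval -0.047 to 0.30, unadjusted p 0.145); 4 of its 8 UCMS libraries lay above every control and the others did not.

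In hippocampus 4 of 10 estimates were above 0, against 50.1% of all genes, with a median of -0.047. Without hippocampus UCMS 3, 6 were above 0 and the median was 0.005. Dnaja1 ran from 6.49 to 6.71 in controls (median 6.68) and from 5.47 to 6.70 under UCMS (median 6.57), with the lowest value from the library that followed GC content. Its difference was -0.17 (SE 0.14) with that library and -0.029 without it. The Hsp90aa1 difference was -0.12 with hippocampus UCMS 3 and 0.0089 without it. Hsph1 differed by 0.0039 (95% interval -0.16 to 0.16), with UCMS libraries from 6.13 to 6.73 spanning the controls from 6.31 to 6.67.

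In the mean of the 3 brain regions of each animal, 5 of 10 estimates were above 0 against 51% of all genes, and 0 passed an unadjusted p under 0.05, which 3.62% of genes did. Without the 2 animals with a brain library that followed GC content, all 10 estimates were above 0, with a median of 0.045. The share of all genes above 0 is not given here for this run, or for single regions without those libraries. Both animals were under UCMS. Dnaja1, Hsp90aa1, Hspa4, Hspa4l, Hsp90b1 and Hsph1 were the lowest of their group in both of those libraries. Leaving the libraries out therefore raises the UCMS means of these genes in those regions.

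In blood 4 of 10 estimates were above 0 against 48.5% of all genes, with a median of -0.032. Hspa8 ran from 5.01 to 5.43 in controls (median 5.17) and from 4.70 to 5.35 under UCMS (median 5.04). 4 of 9 UCMS libraries lay below every control and none lay above. The difference was -0.21 (SE 0.13, 95% interval -0.48 to 0.06, exact permutation p 0.0525). Hspa4 differed by 0.25 (95% interval -0.11 to 0.61), with 4 of 9 UCMS libraries above every control and 1 below. Platelet markers were lower in UCMS blood for 6 of 6 genes, 5 of them at an unadjusted p under 0.05, with a median of -0.49; the mean level of the list ran from 7.76 to 8.24 in controls and from 6.67 to 8.11 under UCMS. Neutrophil (7 of 7, median -0.14), monocyte (5 of 5, -0.40) and T cell markers (7 of 7, -0.17) were also lower, and red cell markers were higher for 6 of 7 (0.16), 1 of these genes at an unadjusted p under 0.05. Of 5 B cell markers 2 were higher (-0.19). The mean levels of each of these lists overlapped between the groups. The part of these cell types in the blood chaperone values was not tested.

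The effects of UCMS on a chaperone were not separated between tissues. In 6 pairs of tissues, 0 of 10 genes passed an unadjusted p under 0.05 in limma on differences within animals, where 1.61% of genes passed between hippocampus and prefrontal cortex, 2.43% between hypothalamus and prefrontal cortex, 2.26% between hypothalamus and hippocampus, and 8.7%, 9.9% and 7.53% between blood and prefrontal cortex, hippocampus and hypothalamus. For Hsph1 the effect in hypothalamus exceeded that in hippocampus by 0.11 (95% interval -0.064 to 0.29) and that in prefrontal cortex by 0.083 (-0.12 to 0.28). The pattern in hypothalamus is thus not shown to be particular to it.

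The balance of cytosolic to ER chaperones was described per library as the mean level of the 8 cytosolic genes minus the mean level of the 2 ER genes. In hypothalamus it was -0.025 ± 0.092 in controls and 0.028 ± 0.083 under UCMS (SD, n = 8 each). In prefrontal cortex it was 0.092 ± 0.075 and 0.13 ± 0.063, and in hippocampus 0.13 ± 0.12 and 0.11 ± 0.14 (n = 8 each). In blood it was 0.17 ± 0.24 in controls (n = 7) and 0.23 ± 0.086 under UCMS (n = 9). The groups overlapped in every tissue, and each difference between means was smaller than the SD of the control group.

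The rest of the chaperone network showed no list in which a gene passed an adjusted p under 0.05 by limma. Of heat shock factors and other heat shock targets, 13 of 23 were higher in UCMS hypothalamus (median 0.042), where the smallest p were those of Hspb1, a small heat shock protein, at 0.51 (unadjusted p 0.0504), and of Stip1, the adaptor between HSP70 and HSP90, at 0.10 (0.0514). In hippocampus 12 of 22 were higher (median 0.019).

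Of 24 HSP70 and HSP90 co-chaperones, 15 were higher in hypothalamus and 17 in prefrontal cortex, none at an unadjusted p under 0.05, and 11 in hippocampus, where Nudc was lower by -0.13 (unadjusted limma p 0.0237). Without hippocampus UCMS 3 that count was 13. In blood 12 of 17 were higher, with unadjusted p under 0.05 for the BAG-domain nucleotide exchange factors Bag1 (0.54, 0.00333) and Bag4 (0.63, 0.00729) and for Dnajb6 (0.36, 0.0391), read against the 10.8% of all blood genes. Dnajb6 was 0.21 (unadjusted limma p 0.166) with weights for each library and 0.27 (0.0999) without blood control 2. Subunits of the cytosolic chaperonin CCT and of prefoldin, which fold actin and tubulin, were lower in hippocampus for 14 of 14 genes, with a median of -0.033 and a smallest unadjusted p of 0.108 for Tcp1. Without hippocampus UCMS 3, 10 of 14 were lower, with a median of -0.025. In hypothalamus 5 of 14 were higher. In blood 6 of 10 were higher and Cct5 was lower by -0.40 (unadjusted limma p 0.0139), or by -0.29 (0.0545) with weights for each library.

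Of ER chaperones, folding enzymes and degradation factors outside the set, 19 of 24 were higher in UCMS hypothalamus, with a median of 0.022 and none at an unadjusted p under 0.05; Calr, the lectin chaperone calreticulin, had the smallest (difference 0.06, unadjusted p 0.145). In prefrontal cortex 11 of 24 were higher (16 without UCMS 5), in hippocampus 8 of 24 and in blood 10 of 22, where Dnajb11, a J-domain partner of BiP, was higher by 0.43 (0.00808). Of the sensors and transcription factors of the unfolded protein response, 8 of 14 were higher in hypothalamus, where Creb3 was lower by -0.11 (0.0336), and 3 of 11 in blood, where Atf6 was higher by 0.31 (0.0408). The unadjusted limma p of Creb3 was 0.0533 without libraries rich in hemoglobin transcripts. Atf6 was 0.19 (0.161) with weights for each library and 0.27 (0.0741) without blood control 2. Mitochondrial chaperones were higher for 4 of 10 genes in hypothalamus, 5 of 10 in prefrontal cortex, 2 of 10 in hippocampus and 2 of 6 in blood, none at an unadjusted p under 0.05.

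The chaperones varied together between animals of 1 group. Levels were centred on their group mean, and each pair of genes was correlated over the 16 libraries of a tissue, with permutation p-values adjusted over 180 pairs in 4 tissues. In the order prefrontal cortex, hippocampus, hypothalamus and blood, 45, 40, 33 and 34 of the 45 pairs were positive. The median r was 0.577, 0.292, 0.321 and 0.251, where the median over all gene pairs of the same tables lay between -0.005 and 0.034. An r of at least 0.5 was reached by 26, 19, 14 and 8 of the 45 pairs, and by 10.2%, 12.1%, 8.75% and 7.02% of all gene pairs. At an adjusted permutation p under 0.05 stood 20, 13, 9 and 5 pairs. Without the libraries that followed GC content these counts were 14, 12, 9 and 1. In hypothalamus 2 pairs passed without the libraries rich in hemoglobin transcripts, 0 of them among the 28 pairs of cytosolic genes. The genes of a library share its dissection and its RNA, and the pairs are not independent of each other.

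Hspa8 and Hsp90ab1, the constitutive cytosolic HSP70 and HSP90, were correlated in each brain region. Their r was 0.817 in prefrontal cortex (rho 0.763, adjusted permutation p 0.008), 0.664 in hippocampus (rho 0.737, 0.037) and 0.698 in hypothalamus (rho 0.668, 0.03). Without the 2 libraries farthest in Hspa8, r was 0.761, 0.668 and 0.598. In blood r was 0.408 (rho 0.412, adjusted permutation p 0.341).

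The ER pair Hspa5 and Hsp90b1 had an r of 0.777 in hypothalamus (rho 0.801, adjusted permutation p 0.018; 0.889 without the 2 farthest libraries). In prefrontal cortex r was 0.646 (rho 0.832, adjusted permutation p 0.054) and in hippocampus 0.438 (rho 0.638, 0.276). Without the libraries that followed GC content these became 0.866 (adjusted permutation p 0.002) and 0.868 (0.003). In blood r was 0.351 with all libraries and 0.8 without blood control 2, but 0.296 once the 2 farthest libraries were also left out.

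Some of the highest correlations changed without the libraries that followed GC content. Hsp90aa1 and Dnaja1 had an r of 0.95 in prefrontal cortex (rho 0.844, adjusted permutation p 0.023) and 0.991 in hippocampus (rho 0.956, 0.002), but 0.039 in hypothalamus (rho 0.031, 0.909), where no library followed GC content. Without those libraries r was 0.568 in prefrontal cortex (adjusted permutation p 0.148) and 0.895 in hippocampus. The paralogs Hsp90aa1 and Hsp90ab1 moved the other way, from 0.199 to 0.637 in prefrontal cortex and from 0.211 to 0.847 in hippocampus, with 0.645 in hypothalamus (rho 0.633, adjusted permutation p 0.04).

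Hspa8 and Hspa5, the HSP70 genes of cytosol and ER, were related in prefrontal cortex (r 0.807, rho 0.794, adjusted permutation p 0.007) and hippocampus (r 0.721, rho 0.656, 0.021). In hypothalamus r was -0.388 (rho -0.344, adjusted permutation p 0.337). There Hspa8 went with the cytosolic Hspa4l (r 0.822, rho 0.815, adjusted permutation p 0.008) and Hsp90aa1 (r 0.756, rho 0.65, 0.008). Neither pair passed in hypothalamus without the libraries rich in hemoglobin transcripts. The r of Hspa8 and Hsp90aa1 was 0.432 in prefrontal cortex and 0.211 in hippocampus. It was 0.579 and 0.555 without the libraries that followed GC content. Whether the correlation of Hspa8 and Hspa5 differs between regions was not tested.

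**Figure D4:**
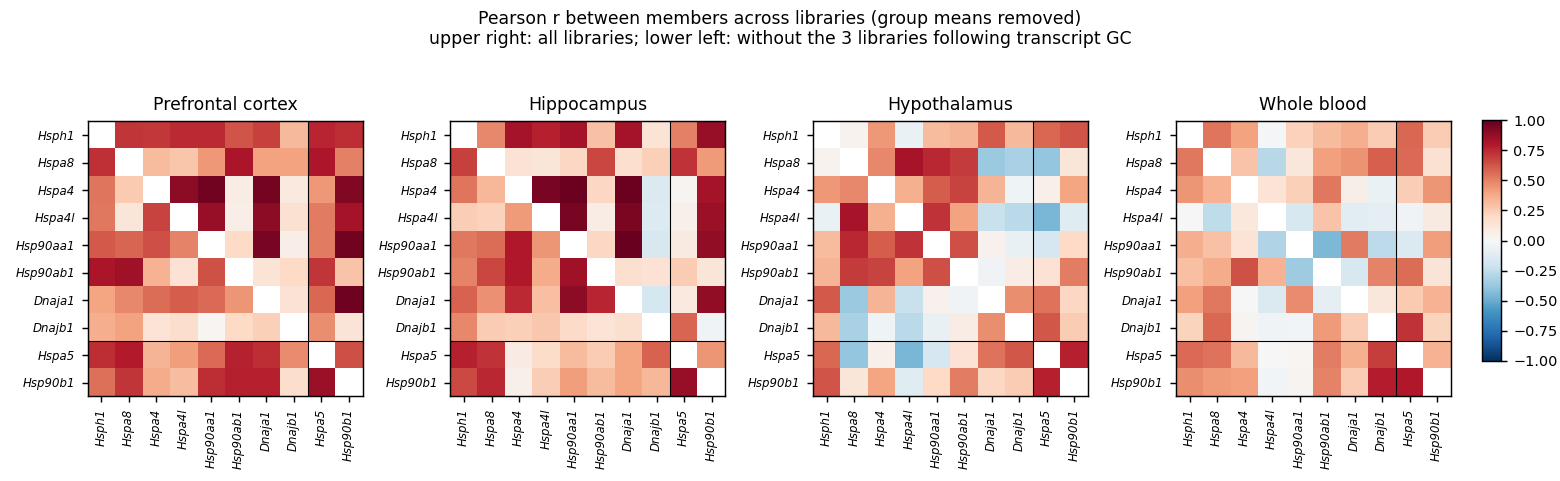
Pearson r between each pair of the 10 chaperones, levels centred on group means, as a colour scale from -1 to 1 in 4 panels by tissue; the upper right triangle uses all 16 libraries and the lower left leaves out the libraries that followed transcript GC content. In hippocampus Hsp90aa1 with Hsp90ab1 goes from 0.211 to 0.847 and Hspa5 with Hsp90b1 from 0.438 to 0.868.

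Genes most like Hspa5 were found by the mean of r over the 3 brain regions, among 13432 genes. The first was Pdia4, an ER disulfide isomerase, at a mean r of 0.89 (0.84 for prefrontal cortex, 0.96 for hippocampus and 0.86 for hypothalamus), followed by the isomerase Pdia6 at 0.86. Next came Ahsa1 (0.78), which activates the ATPase of HSP90, then the ER chaperone Hyou1 (0.76), Creld2 (0.76), the secreted ER protein Manf (0.74), the splicing regulator Tra2a (0.74) and Xbp1 (0.69), a transcription factor of the unfolded protein response. Without the libraries that followed GC content Pdia4 (0.88) and Pdia6 (0.86) again came first, and Hsp90b1 ranked 3 at 0.84. After the correction for transcript GC content Pdia4 (0.85), Pdia6 (0.81), Creld2 (0.78) and Tra2a (0.71) held ranks 1 to 4. The others fell: Xbp1 to rank 11 (0.62), Hyou1 to 14 (0.62), Ahsa1 to 17 (0.60) and Manf to 23 (0.56). Hsp90b1 then ranked 13 (0.62). Of 20 listed ER chaperone and folding genes with a promoter window, 7 held the ER stress element printed above, Pdia6 and Creld2 among them. The windows of Pdia4, Ahsa1, Tra2a and Xbp1 did not hold it.

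**Figure D5:**
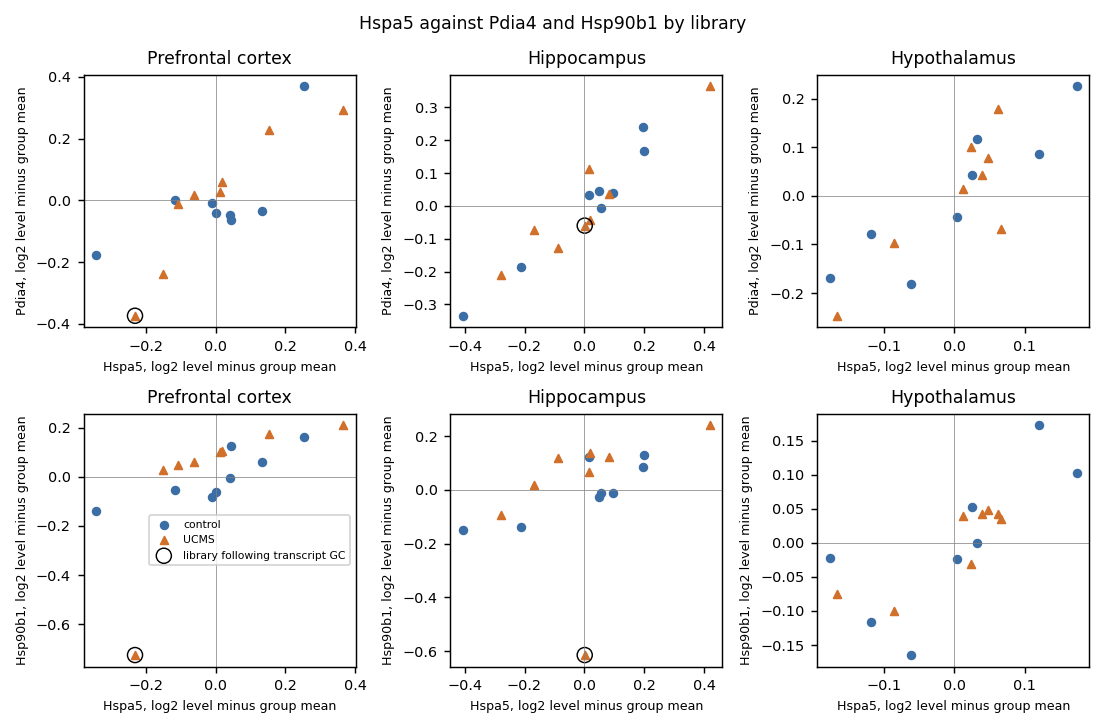
Level of Pdia4 (top) and Hsp90b1 (bottom) against that of Hspa5, all log2 and centred on the group mean, 1 point per library, in the 3 brain regions, with control and UCMS libraries in separate colours and the libraries that followed GC content ringed. Pdia4 follows Hspa5 with an r of 0.84, 0.96 and 0.86, and in the lower panels the ringed libraries lie below the trend of the others.

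Genes most like Hsph1 were Hsp90b1 (mean r 0.75), the isomerase Pdia3 (0.74), Ythdc1 and Sfpq (0.72 each), which bind nuclear RNA, Chordc1 (0.72), and Dnaja1, Phip and Dnajb4 (0.71 each). Without the libraries that followed GC content these genes ranked 9, 4, 53, 51, 14, 38, 57 and 65, and the first ranks went to Hspa5 (0.70), Hyou1 (0.69) and Pdia6 (0.69). Hsph1 and Hspa5 themselves had an r of 0.765 in prefrontal cortex (rho 0.759, adjusted permutation p 0.018), 0.504 in hippocampus (rho 0.624, 0.183) and 0.571 in hypothalamus (rho 0.65, 0.077).

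Cirbp and Rbm3, RNA-binding proteins induced by mild cold, were set against Hsph1 and Hspa5 as a readout linked to temperature, in 16 relations. 1 passed an adjusted permutation p under 0.05: Hsph1 and Cirbp in prefrontal cortex, with an r of -0.715 (adjusted permutation p 0.0232) and a rho of -0.626 (0.193). Without the 2 libraries farthest in Hsph1 r was -0.512, and without prefrontal cortex UCMS 5 r was -0.705 (adjusted permutation p 0.0805). In hippocampus r was -0.462 (rho -0.506, adjusted permutation p 0.249), in hypothalamus -0.013 (rho 0.132, 0.963) and in blood -0.277 (rho -0.029, 0.677). Rbm3 itself was lower in UCMS hypothalamus by -0.11 (unadjusted limma p 0.0345), and Cirbp differed there by 0.05 (0.563). With weights for each library Rbm3 was -0.069 (unadjusted limma p 0.153), and without libraries rich in hemoglobin transcripts it was -0.097 (0.129).

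Levels in prefrontal cortex and hippocampus of the same animal had a positive r for 7 of the 10 genes, and 2 passed an adjusted permutation p under 0.05. Without the libraries that followed GC content 9 were positive, the median r was 0.504 and 3 passed. After the correction for transcript GC content 9 were positive, the median r was 0.593 and 1 passed. Over 60 relations between tissues of the same animal, Hspa5 had an r of 0.829 between these regions (rho 0.827, adjusted permutation p 0.024; 0.724 without the 2 farthest animals) and Dnajb1 an r of 0.724 (rho 0.732, 0.0327; 0.66). For Dnajb1 r was 0.611 between prefrontal cortex and hypothalamus (rho 0.565, adjusted permutation p 0.147) and 0.686 between hippocampus and hypothalamus (rho 0.718, 0.097). No relation of a brain region with blood passed, and the median r over the 10 genes was -0.02 for prefrontal cortex, 0.13 for hippocampus and 0.031 for hypothalamus. Without the brain libraries rich in hemoglobin transcripts (an Hbb-bs level above 12) none of the 60 passed, with 12 or 13 animals left in each pair of brain regions. For prefrontal cortex and hippocampus (13 animals) r of Hspa5 was then 0.85 (adjusted permutation p 0.0834), and the median over the 10 genes was 0.359, against 0.325 with all 16 animals.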

How the data were processed

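RNA came from dissected brain regions (stored in RNAlater) and from trunk blood. Per the labels' protocols, 100 ng of RNA per library went into ribosomal RNA depletion and a directional kit. The authors deposited 1 table per tissue of normalized log2 values for build GRCm38.p4, named by the submitters' processing notes. For the aligner, counter, annotation and use of strand, no statement was found: these were not given in the sources used here. Base 2 and quantile normalization between libraries were inferred from the values: at 88.7% of gene ranks for hypothalamus, 89% for prefrontal cortex, 89.4% for hippocampus and 72.4% for blood, all libraries were equal within 0.002. Depth is unknown, so no counting interval is given.

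The 10 genes and the pathway lists were chosen with earlier results of these data known. Each table was fitted with limma 3.58.1 (R 4.3.3; trended prior, two-sided), UCMS against control, after leaving out the 10% of genes with the lowest mean, with Benjamini-Hochberg adjustment over all genes tested. Effects were compared between tissues by limma on differences within animals. All 10 genes passed the filter in each tissue. Correlations used group-centred levels and two-sided permutation within groups (100000 resamples), and single differences used exact permutation of labels. Likeness to Hspa5 and Hsph1 was the mean r over the 3 brain regions, the 8 highest being named. Of the pathway lists, at most 3 genes of smallest p per tissue were named. Single genes of the heat shock target list in hippocampus are not reported here.

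Transcript GC content came from GENCODE M21 and covered 86.8% to 88.3% of tested genes. Libraries with a rho above 0.5 between deviation and GC content, and a spline correction for it, were added after the values were seen. The fit was tested on simulated data. Replicates are separate animals by their titles.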

Additional observations from a re-analysis of the deposited data

Results flagged for a closer look

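Of 88 groups of values compared within themselves, 12 held a library far from the others by Dixon's test at the 95% level, where chance gives about 1 in 20 groups. 10 of these values were in the brain libraries that followed transcript GC content. In prefrontal cortex UCMS 5 they were Hspa4 at 5.11 (next lowest library 5.79), Hspa4l at 4.78 (5.36), Hsp90aa1 at 6.64 (7.47), Dnaja1 at 5.13 (6.33) and Hsp90b1 at 5.84 (6.59), all log2 levels and each the lowest of 8. In hippocampus UCMS 3, a different animal, the same genes stood lowest, with Hspa4 at 5.20 (next lowest 5.87), Hspa4l at 4.92 (5.51), Hsp90aa1 at 6.48 (7.40), Dnaja1 at 5.47 (6.52) and Hsp90b1 at 6.03 (6.55). The cause was not tested.

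The other 2 values lay in libraries that did not follow GC content. Hspa4 in prefrontal cortex control 6 was highest of its group at 6.002, the next being 5.92, a small gap in a narrow group. Hsph1 in blood UCMS 1 was lowest at 1.97, the next being 2.66, and its blood difference was 0.17 with this library and 0.28 without it.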

How the results depend on the processing

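In the fits of UCMS against control, no count of genes or chaperones at an adjusted p under 0.05 moved from 0, except for 1 gene in blood, not a chaperone, when a library was left out (0 to 1). For the difference of the effect between blood and hypothalamus, 1 gene, not a chaperone, passed that threshold with all libraries. With the replicate block, or without the libraries that followed GC content, 0 passed there. Hsph1 in hypothalamus kept an unadjusted p under 0.05 in each alternative run. Other member estimates were small and several crossed 0; where no value above shows the cause, the cause was not tested. With the GC correction, Hspa5 in prefrontal cortex was 0.037, chaperones at an unadjusted p under 0.05 in hypothalamus went from 1 to 2, blood pairs from 5 to 2, relations with Cirbp or Rbm3 from 1 to 0 and relations between tissues from 2 to 1. Without the libraries that followed GC content, chaperones higher in UCMS went from 4 to 7 in prefrontal cortex and from 5 to 10 in the mean of the regions, Hsp90aa1 was 0.035 in prefrontal cortex and 0.0089 in hippocampus, Dnaja1 0.041 and Hspa5 0.032 in prefrontal cortex, Hsp90b1 0.00054 in hippocampus, blood pairs went to 1 and cold relations to 0. With array weights and a robust prior, 7 were higher in prefrontal cortex, where Hsp90aa1 was 0.023, Dnaja1 0.047 and Hspa5 0.028; Hspa8 was 7.73e-06 and Hspa5 -0.010 in hippocampus, and Hspa4 was -0.0058 and Dnaja1 -0.0050 in hypothalamus. Without animals whose names start with BS, Hsph1 was -0.012 in prefrontal cortex and -0.022 in hippocampus, Hspa5 -0.044 in hippocampus, where 2 were higher, and Dnajb1 -0.011 in blood. Without hemoglobin-rich libraries, Hspa8 was 0.0058 in hippocampus and Hsp90b1 -0.013 in hypothalamus, where 2 chaperones had an unadjusted p under 0.05 and pairs went from 9 to 2; relations between tissues went to 0. With myelin as covariate Hspa8 was 0.0023 in hippocampus and 3 chaperones had an unadjusted p under 0.05 in hypothalamus; with re-centred libraries Hspa8 was 0.0019 in hippocampus and Hspa5 0.0036 in prefrontal cortex. In UCMS animals alone, with 8 or 9 libraries, pairs past the threshold were 3 in hippocampus, 3 in hypothalamus, 0 in prefrontal cortex and 0 in blood, and cold relations 0; in control animals alone each of these was 0, with 7 or 8 libraries.

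Leaving out each library in turn gave these ranges. In prefrontal cortex they were 0 to 1 chaperones at an unadjusted p under 0.05, 3 to 7 higher, Hsph1 -0.015 to 0.099, Hsp90aa1 -0.10 to 0.035, Dnaja1 -0.17 to 0.041 and Hspa5 -0.053 to 0.035. In hippocampus 2 to 6 were higher, with Hsph1 at -0.029 to 0.063, Hspa8 -0.023 to 0.013, Hsp90aa1 -0.16 to 0.0089, Hspa5 -0.044 to 0.056 and Hsp90b1 -0.12 to 0.00054. In hypothalamus 1 to 2 had an unadjusted p under 0.05, with Dnaja1 at -0.0015 to 0.046, Hspa5 -0.0034 to 0.047 and Hsp90b1 -0.0066 to 0.042. In blood 3 to 7 were higher, with Hsph1 at -0.0043 to 0.28, Dnaja1 -0.13 to 0.062, Dnajb1 -0.028 to 0.11, Hspa5 -0.14 to 0.012 and Hsp90b1 -0.13 to 0.072. In the mean of the regions 0 to 1 had an unadjusted p under 0.05.

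Replicate numbers were not taken as pairs. Same-numbered control and UCMS libraries correlated from -0.13 to 0.55 for prefrontal cortex, -0.37 to 0.51 for hippocampus, -0.45 to 0.30 for hypothalamus and -0.26 to 0.25 for blood. In that order 6 of 8, 3 of 8, 3 of 8 and 2 of 7 had an r over 0.1. The UCMS library most like a control carried its number in 2, 0, 0 and 1 cases. With the replicate block 0 genes passed the adjusted threshold in each tissue, and Dnajb1 in blood went from 0.042 to -0.011. Unknown depth and 7 to 9 animals per group limit what these differences can show.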
